A study of Homo sapiens with 2 samples.

Results

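Mismatch repair was represented here by 6 genes, MSH6, MSH3, PMS2, PMS1, MLH3 and EXO1, taken by symbol from the 18083 gene symbols kept from the table. Earlier results of these data were known when these genes were chosen. All 6 were found, each with 1 row. The RNA was poly(A)-selected from asynchronous U2OS cultures, a human osteosarcoma line, exposed for 18 h to 0.3 µM aphidicolin, an inhibitor of the DNA polymerases of replication. The 2 libraries are replicates of this 1 group, and since separate cultures are not stated, their spread and any p may be technical only. Untreated cells were not analysed here: every value is a level in treated cells and not a response, and in bulk RNA fewer cells and less RNA per cell cannot be told apart. The RPKM rest on totals of 13227805 reads in replicate 1 and 13020149 in replicate 2.

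Mismatch repair removes mispaired bases and small loops left behind by the replicative polymerases. MutS homologues recognise the fault: MSH6 serves in the dimer known for base mispairs and the smallest loops, and MSH3 in the dimer known for larger loops, with both proteins pairing with a common MutS partner. MutL homologues are then recruited, of which PMS2 carries the endonuclease activity of the main dimer, MLH3 acts mainly in meiotic crossing over and on some loops, and PMS1 has no well defined part in human repair. EXO1, a 5′ to 3′ exonuclease, removes the strand that holds the fault, and the replicative machinery then fills and seals the gap. The common partners of these MutS and MutL proteins are not analysed here.

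The promoter sequences of 4 of the 6 genes, MSH6, EXO1, MSH3 and PMS2, held an E2F word, and those of MLH3 and PMS1 did not. E2F factors are known to drive genes of S phase, and the words searched on both strands were TTTGGCGC, TTTCCCGC, TTTGCCGC and TTTCGCGC. The 30 bases around the match in MSH6, EXO1 and PMS2 are shown 5′ to 3′ on the strand of the gene, with the words in capitals, from RefSeq sequence on GRCh38.p14. They lie at chr2:47783137-47783166 for MSH6, chr1:241848197-241848226 for EXO1, both on the plus strand, and chr7:6009131-6009160 on the minus strand for PMS2.
MSH6: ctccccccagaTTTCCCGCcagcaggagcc
EXO1: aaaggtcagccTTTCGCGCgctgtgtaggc
PMS2: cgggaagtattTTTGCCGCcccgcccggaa
Counted from the transcript start on which the first RefSeq window of each gene is built, the match began 43 bases before the start in PMS2, at base 4 after it in MSH6 and at base 5 after it in EXO1. For EXO1 that start lies downstream of the RefSeq start of the gene, 241847986. Over all 35116 promoter windows of the same kind, 250 bases before to 50 after a start, 3.31% held such a word. Taken per gene, the share was 3.99% of 27305 genes and 6.82% of the 9469 genes that reached 1 RPKM in both libraries. These are matches of letters, not measured binding, and the words were searched with earlier results of these data known.

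MSH6, the most abundant of the 6, had 5 matches to the GC box GGGCGG in its first RefSeq window, shown in capitals in the stretch upstream of its first exon in the GENCODE basic set, chr2:47782895-47783081 on the plus strand.
MSH6 upstream: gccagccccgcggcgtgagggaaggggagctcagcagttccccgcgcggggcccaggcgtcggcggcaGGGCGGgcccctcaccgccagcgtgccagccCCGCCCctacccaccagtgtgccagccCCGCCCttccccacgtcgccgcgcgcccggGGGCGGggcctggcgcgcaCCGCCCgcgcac
The GC box is common: it was found on either strand in 5 of the 6 genes, against 48.3% of all genes and 78.1% of genes at 1 RPKM in both libraries. In the first RefSeq window of each gene, MSH3 had 4 matches, PMS2 had 2, EXO1 and PMS1 had 1 each and MLH3 had 0, an order that differs from the order of their levels.

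The 6 genes spanned an 8.16-fold range of levels. Values are RPKM, which divide reads by the library total and by exonic length, as means ± SD of the 2 libraries unless a replicate is named. All 6 reached 1 RPKM in both libraries, a level that 66.7% of the 17912 entries of the table passed, and all 6 lay above the median of all entries, 3.53 RPKM. MLH3 stood only just above it. The median of the 6 was 7.74 RPKM, at percentile 65.8 of all entries.

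**Figure D1:**
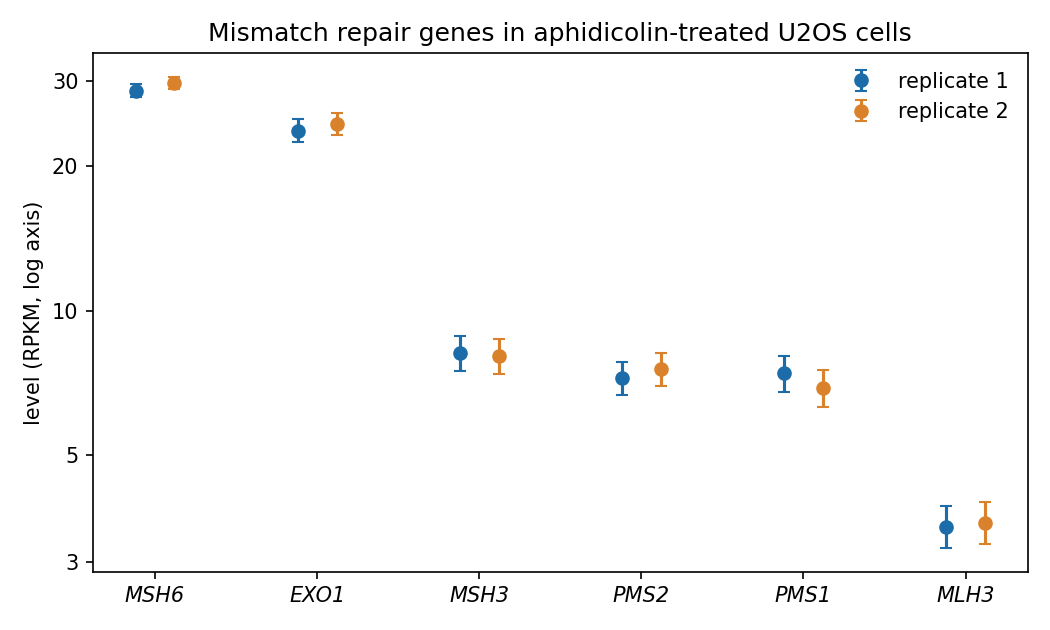
Level of each mismatch repair gene in RPKM on a log axis. Points are the 2 libraries and bars are 95% counting intervals from recovered reads; MSH6 and EXO1 stand apart near the top, MSH3, PMS2 and PMS1 lie together, and MLH3 is lowest at 3.54 and 3.62 RPKM.

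Among the mismatch sensors, MSH6 was far above MSH3. MSH6 (ENSG00000116062.14, chromosome 2 from 47695530 to 47810101, plus strand) had 28.7 RPKM in replicate 1 and 29.8 RPKM in replicate 2, from 4171 and 4263 reads. Its mean of 29.2 ± 0.78 RPKM placed it at rank 1602 of the entries, percentile 91.1. MSH3 (ENSG00000113318.9, chromosome 5 from 80654648 to 80876460, plus strand) had 8.14 and 8.03 RPKM, from 574 and 557 reads, a mean of 8.09 ± 0.081 RPKM at percentile 66.8. The levels of these sensors did not come near each other in either library. MSH6 exceeded MSH3 by 3.52-fold in replicate 1 (95% counting interval 3.23 to 3.85) and by 3.71-fold in replicate 2 (3.40 to 4.06), a mean log2 ratio of 1.85 ± 0.053. Of the summed RPKM of the pair, MSH6 made up 77.9% and 78.8%.

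EXO1, the nuclease, was close behind MSH6. EXO1 (ENSG00000174371.16, chromosome 1 from 241847967 to 241895148, plus strand) had 23.7 and 24.5 RPKM, from 1296 and 1317 reads, a mean of 24.1 ± 0.54 RPKM at percentile 88.4. MSH6 over EXO1 was 1.21-fold in replicate 1 (95% counting interval 1.14 to 1.29) and 1.22-fold in replicate 2 (1.14 to 1.30). The ratio was nearly the same in both libraries, and both intervals lay above 1. EXO1 in turn exceeded MSH3 by 2.91-fold and 3.05-fold.

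The MutL homologues were lower. PMS2 (ENSG00000122512.15, chromosome 7 from 5973239 to 6009125, minus strand) had 7.23 and 7.56 RPKM, from 596 and 613 reads, a mean of 7.39 ± 0.23 RPKM at percentile 64.8. PMS1 (ENSG00000064933.17, chromosome 2 from 189784085 to 189877629, plus strand) had 7.40 and 6.89 RPKM, from 534 and 489 reads, a mean of 7.14 ± 0.36 RPKM at percentile 64.1. PMS2 was below PMS1 in replicate 1 and above it in replicate 2, so this pair could not be ordered. PMS2 over PMS1 was 0.977-fold (95% counting interval 0.868 to 1.10) and 1.10-fold (0.973 to 1.24). MLH3 (ENSG00000119684.15, chromosome 14 from 75013764 to 75051532, minus strand) had 3.54 and 3.62 RPKM, from 392 and 394 reads, a mean of 3.58 ± 0.053 RPKM at percentile 50.3. PMS2 exceeded MLH3 by 2.04-fold and 2.09-fold, and PMS1 exceeded it by 2.09-fold and 1.90-fold. MLH3 therefore lay below the other MutL homologues in both libraries.

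In order of mean RPKM the genes were MSH6, EXO1, MSH3, PMS2, PMS1 and MLH3. The middle of that order was loose. MSH3 over PMS2 was 1.13-fold in replicate 1 (95% counting interval 1.002 to 1.26) and 1.06-fold in replicate 2 (0.946 to 1.19), and MSH3 over PMS1 was 1.10-fold (0.976 to 1.24) and 1.17-fold (1.03 to 1.32). MSH3 was nominally higher than both in both libraries, but 2 of these 4 intervals included 1.

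**Figure D2:**
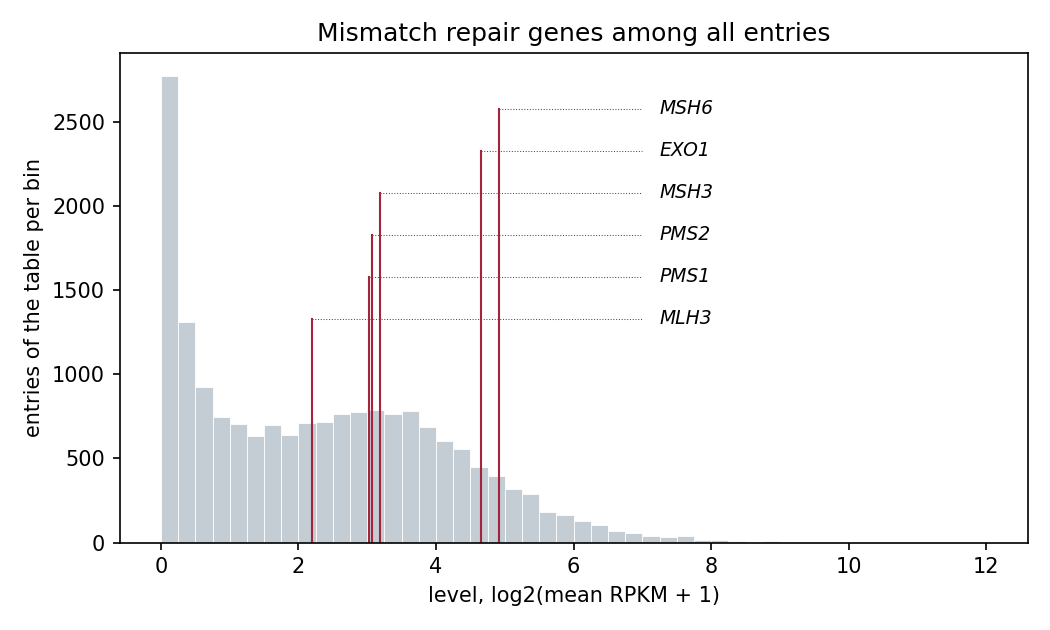
Distribution of all 17912 entries of the table by log2(mean RPKM + 1), as entries per bin, with a line at each mismatch repair gene; line heights differ only to separate the names. MSH6 and EXO1 sit in the upper shoulder, at percentiles 91.1 and 88.4, and MLH3 at the middle, at percentile 50.3.

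The levels of all 6 genes depend on the exonic length that divides the reads. The RPKM imply the length the authors used, and for MSH6 it was 10993 bases, the same as the union of all its exons in GENCODE release 29. The longest coding sequence of MSH6 is 4080 bases. Of the GENCODE exonic bases, 2503 lie outside the RefSeq extent of the gene, from 47783145 to 47810101, and 1785 (16.2%) overlap exons of FBXO11 on the opposite strand. For PMS2 the implied length was 6231 bases against 3936 exonic bases in GENCODE, and for MSH3 it was 5329 against 4709. EXO1 (4137 against 4140), PMS1 (5454 in both) and MLH3 (8363 in both) matched closely, which for EXO1 and PMS1 is partly built in, because GENCODE lengths set a whole factor of 3 in their reads.

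Divided by coding length instead, MSH6 stood further above the rest and MSH3 stood below PMS2. On this scale, the CPM of a gene (reads scaled to the library total) per kb of coding length, MSH6 had 78.8 ± 2.1, EXO1 39.2 ± 0.88, PMS2 17.8 ± 0.55, PMS1 13.9 ± 0.71, MSH3 12.6 ± 0.13 and MLH3 6.87 ± 0.10. MSH6 over MSH3 became 6.08-fold in replicate 1 and 6.40-fold in replicate 2, a log2 ratio of 2.64. MSH6 over EXO1 became 2.002-fold and 2.014-fold. MSH3 over PMS2 became 0.730-fold (95% counting interval 0.650 to 0.820) and 0.689-fold (0.613 to 0.774), which turns their order round. PMS2 over PMS1 became 1.21-fold (1.07 to 1.36) and 1.36-fold (1.20 to 1.53), so that PMS2 led the MutL genes in both libraries. MSH3 over PMS1 became 0.881-fold (0.782 to 0.993) and 0.934-fold (0.825 to 1.06), and the second of these intervals included 1. The places of MSH6, EXO1 and MLH3 were the same on both scales. Reads of untranslated exons are counted in these values, so genes with long untranslated ends are raised by the division.

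**Figure D3:**
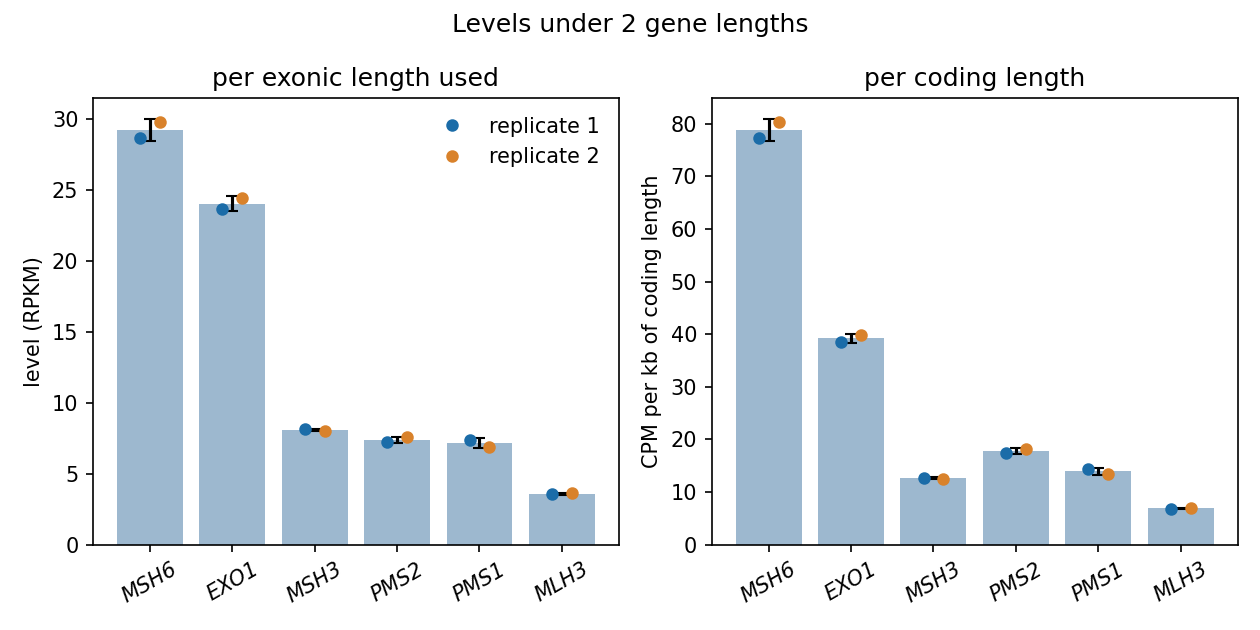
Level of each gene divided by the exonic length implied by the RPKM (left) and by the longest coding length (right, CPM per kb). Bars are means with SD and points are the 2 libraries; MSH6 leads on both, and by mean MSH3 is above PMS2 and PMS1 on the left and below both on the right.

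PMS2 shares stretches of its sequence with other genes, mainly PMS2CL, and part of its value is uncertain for that reason. In the transcript with its longest coding sequence, 34.1% of 50-base windows and 17.4% of 100-base windows were found letter for letter in transcripts of other genes, on either strand. All the shared 100-base windows were in PMS2CL, a transcribed pseudogene, and PMS2CL held 809 of the 956 shared 50-base windows, with 18 genes sharing at least 1. PMS2P3 and PMS2P4 held only 46 and 4 of the shared 50-base windows. PMS2P1, PMS2P9 and PMS2P7 held more, 111, 82 and 78, but were not listed, so they have no level here. The transcript searched has 2855 bases, fewer than the 6231 bases that the RPKM of PMS2 imply. PMS2CL itself had 125 and 120 reads, 2.41 ± 0.043 RPKM. PMS2P3 had 41 and 33 reads, 1.72 ± 0.24 RPKM, and PMS2P4 had 30 and 21 reads, 1.53 ± 0.37 RPKM. Together these 3 listed pseudogenes held 32.9% as many reads as PMS2 in replicate 1 and 28.4% in replicate 2, which leaves out the copies not listed. How the authors' counting divided reads between them is not given in the labels or headers.

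MSH6 shared 19.0% of its 100-base windows, all with FBXO11, which overlaps its end on the opposite strand. EXO1, PMS1 and MLH3 shared none at either window length. The PMS1 transcript searched has 3225 bases, fewer than the 5454 bases that its RPKM imply. Over all its GENCODE exons, PMS1 shares 103 bases (1.89%) with exons of ORMDL1 on the opposite strand. Whether reads were assigned by strand is not stated, and the part of these overlaps in the levels was not tested.

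**Figure D4:**
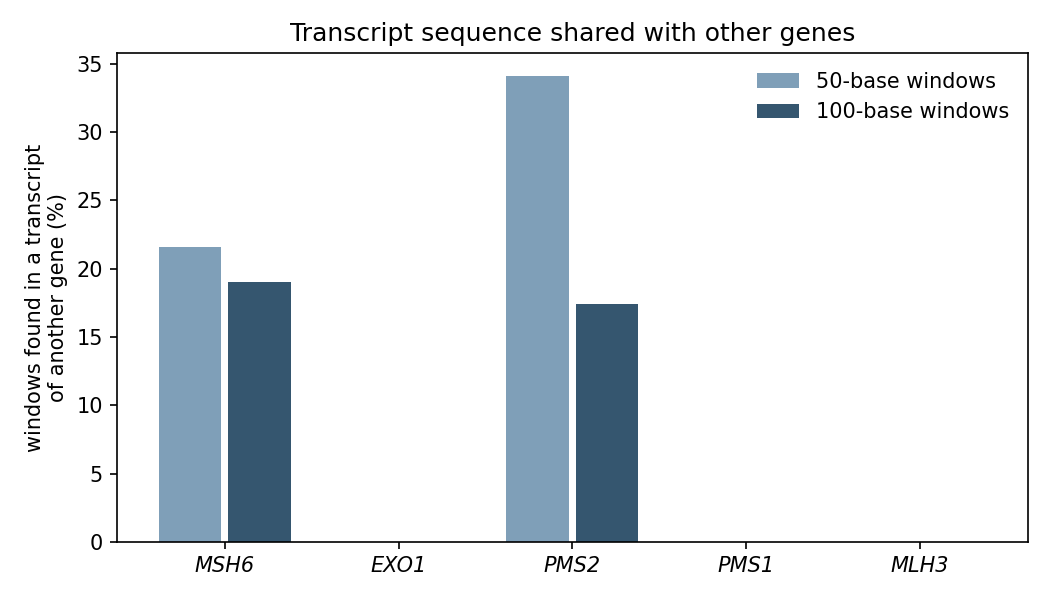
Share of windows of the longest coding transcript of 5 mismatch repair genes that occur in a transcript of another gene, in percent, for 50-base and 100-base windows. PMS2 reaches 34.1% and 17.4%, MSH6 is lower for 50-base windows and higher, at 19.0%, for 100-base windows, and EXO1, PMS1 and MLH3 are at 0.

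PMS1 and PMS2 each have a protein-coding gene on the opposite strand whose start lies within 1 kb of their own. Of all 15381 listed protein-coding genes, 15.2% had such a neighbour. PMS1 is paired with ORMDL1, which encodes a regulator of sphingolipid synthesis, and PMS2 with AIMP2, a scaffold of the multi-aminoacyl-tRNA synthetase complex. By GENCODE starts the PMS2 and AIMP2 transcripts begin 120 bases apart and do not overlap. By the same GENCODE starts, the ORMDL1 gene begins 286 bases inside PMS1, at 189784371. RefSeq places the start of PMS1 further along, at 189784450, so this overlap depends on the annotation. The PMS2 and AIMP2 gap is short enough to show whole, at chr7:6009126-6009244 on the minus strand, with the E2F word and both matches to CCAAT in capitals.
PMS2 and AIMP2 gap: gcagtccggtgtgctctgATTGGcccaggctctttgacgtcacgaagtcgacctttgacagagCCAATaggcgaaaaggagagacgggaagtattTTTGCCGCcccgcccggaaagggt
The E2F word shown also lies in the first RefSeq window of AIMP2. The word CCAAT, on either strand, was found in 3 of the 6 genes, against 39.7% of all genes and 43.1% of genes at 1 RPKM in both libraries.

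PMS1 and PMS2 were each lower than their neighbour in both libraries. PMS1, at 7.40 and 6.89 RPKM, stood against ORMDL1 at 17.5 and 17.0 RPKM, a ratio of PMS1 over ORMDL1 of 0.423 and 0.405. PMS2, at 7.23 and 7.56 RPKM, stood against AIMP2 at 37.1 and 40.0 RPKM, a ratio of 0.195 and 0.189. The members of a pair thus differed by more than their spread, and the gap was wider for PMS2 and AIMP2, whose mean log2 ratio was -2.38 ± 0.031. Per coding length the ratios were 0.0945 and 0.0906 for PMS1 over ORMDL1 and 0.246 and 0.239 for PMS2 over AIMP2. All were below 1 as well, though the gap was then wider for PMS1 and ORMDL1. The coding length of ORMDL1 is only 459 bases against 4007 used for its RPKM, and that of PMS1 is 2796 against 5454. Division by coding length therefore raises ORMDL1 more than PMS1.

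**Figure D5:**
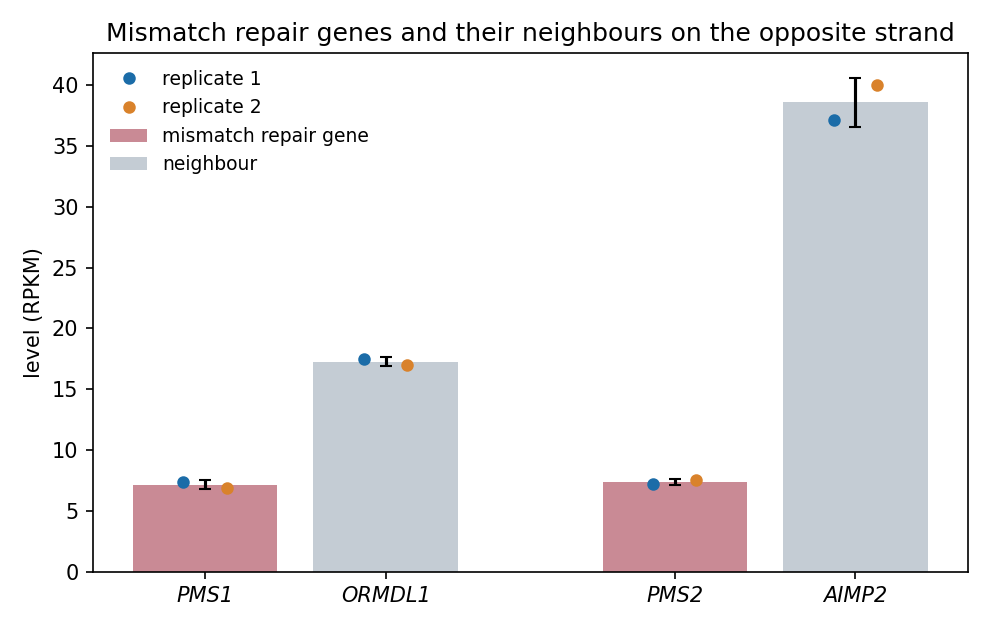
RPKM of PMS1 and PMS2, each beside the gene that starts within 1 kb on the opposite strand. Bars are means with SD and points are the 2 libraries; both mismatch repair genes are below their neighbours, with PMS2 at 7.39 RPKM against 38.6 RPKM for AIMP2.

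The 2 libraries gave closely similar levels for all 6 genes, with an SD between 1.01% of the mean for MSH3 and 5.10% for PMS1. MSH6, EXO1, PMS2 and MLH3 were nominally higher in replicate 2, and MSH3 and PMS1 in replicate 1. An exact binomial test of the recovered reads, 2-sided and with Benjamini-Hochberg adjustment over 11944 genes, called none of the 6, against 1.66% of all genes tested, and none had an unadjusted p under 0.05. MSH6 came nearest, where replicate 2 over replicate 1 gave 0.06 ± 0.031 on the log2 scale (SE from counting), an unadjusted p of 0.0539 and an adjusted p of 0.436. PMS1 had the largest ratio in size, -0.10 ± 0.090. No condition is compared by it.

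The factors that fill and seal the gap were all expressed at 1 RPKM or more. All 14 genes of a resynthesis list passed 1 RPKM, a level that 66.7% of all entries passed in both libraries. Their median was 28.5 RPKM, from the sliding clamp gene PCNA at 216 ± 5.3 RPKM to the polymerase delta subunit gene POLD4 at 1.72 ± 0.19 RPKM. All 8 accessory factors passed, with a median of 9.71 RPKM, from the clamp loader gene RFC1, which both lists hold, at 37.2 ± 0.96 RPKM to the helicase gene MCM9 at 1.12 ± 0.0082 RPKM.

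Among the MutS homologues of meiosis the levels were low. MSH4, which pairs with MSH5 on meiotic recombination intermediates, had 6 and 4 reads, 0.116 ± 0.032 RPKM. MSH5 had 107 and 92 reads, 1.21 ± 0.12 RPKM, and the readthrough MSH5-SAPCD1, which shares exons with it, had 26 and 27 reads. Of the 11 meiotic genes 8 were listed and 3 passed 1 RPKM, against 66.7% of all entries. The median over the listed genes was 0.402 RPKM. HORMAD1, a protein of the meiotic chromosome axis, was highest at 3.24 ± 0.031 RPKM, and SYCP3 of the synaptonemal complex was lowest at 0.0796 ± 0.00089 RPKM, from 4 reads in each library. MLH3, at 3.58 RPKM, was thus measured in cells where most of these meiotic genes were below 1 RPKM.

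With a single condition, genes of a like pattern can only be genes of a like level over these 2 libraries. By distance in log2(RPKM + 1), the nearest symbol was MOV10 for MSH6 (0.0112), GLYR1 for EXO1 (0.0053), RAB36 for MSH3 (0.0014), TSTD1 for PMS1 (0.00435) and ERCC4 for MLH3 (0.0046).

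The line was checked against markers. Of 8 listed osteoblast and mesenchymal markers 6 passed 1 RPKM, near the 66.7% of all entries, so this count alone does not identify the line. SPARC led at 280 ± 3.7 RPKM, and RUNX2 had 8.55 ± 0.18 RPKM. BGLAP at 0.277 RPKM and COL1A2 at 0.0515 RPKM did not pass, and SP7 and IBSP were not listed. Haematopoietic, endothelial and hepatocyte markers passed in 0 of 2, 0 of 3 and 0 of 1 listed cases, with levels between 0.0624 and 0.462 RPKM. Of 4 epithelial markers KRT18 at 42.6 ± 1.5 and EPCAM at 2.28 ± 0.21 RPKM passed.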

How the data were processed

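RNA of 2 libraries of 1 group was analysed. The authors deposited RPKM, per the file headers, in 1 table; the submitters' processing notes name featureCounts, HISAT2 and Trim Galore, and the builds hg38 and GRCh38.p13. Versions, annotation and strand use are not given there. Of 18277 rows, 194 rows of 58 repeated symbols were left out, and equal values were taken once for the 17912 entries. Reads were recovered from the deposited RPKM: both columns stood in a whole-number ratio for 100% of genes (tolerance 1e-12, relative), and the library totals came to 13227805 and 13020149 reads. A whole factor per gene was set by its exonic length in GENCODE release 29. Lengths of the 6 genes could only be whole multiples of those given, or for EXO1 and PMS1 of those given divided by 3. Counting intervals (95%, exact Poisson for levels, exact Clopper-Pearson for ratios) cover counting error only. On simulated data totals and reads were recovered. The library test took adjusted p under 0.05 (Benjamini-Hochberg) after TMM scaling (replicate 2 factor 0.9956); chi-square per degree of freedom was 1.79, more than counting error.

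The members, gene lists and named genes (the 6, homologues by symbol, opposite-strand neighbours, nearest symbols, list extremes) were chosen with earlier results of these data known. Some genes of that rule are not reported here. Settings tried were the level, unit, length, pseudocount, background, scaling and each library alone. The software was Python 3.11.15 with pandas 2.3.3, scipy 1.17.1 and numpy 2.4.6.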

Additional observations from a re-analysis of the deposited data

How the results depend on the processing

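No paired analysis was possible because both libraries belong to 1 group. All 6 genes passed at 0.5 RPKM, 1 CPM (reads scaled by library total alone), 1 TPM (RPKM rescaled to a fixed sum) and in each library alone, and 5 passed at 5 RPKM, where MLH3 did not. The percentile of their median (65.8) was 67.6 in CPM, 61.3 among protein-coding genes, 48.8 among entries at 1 RPKM or more, and 65.9 to 66.0 without either replicate. The log2 ratio of MSH6 to MSH3 (1.85) was 1.73 with log2(RPKM + 1), 2.90 in CPM, 2.64 per coding length and 1.82 to 1.89 without either replicate. The log2 ratio of MSH3 to PMS2 (0.13), whose alternatives were chosen after seeing the data, reversed to -0.10 in CPM and -0.50 per coding length. By construction, those settings that reversed it differ only in the length divided by. It was 0.11 with log2(RPKM + 1) and 0.09 to 0.17 without either replicate. None of the 6 was called between the libraries under library totals, median-of-ratios scaling, no minimum of reads or an adjusted p under 0.01. The resynthesis list passed in 13 of 14 cases and the accessory list in 6 of 8 at 5 RPKM, and the meiotic genes (3) numbered 0, by construction of a stricter level; these list settings were also chosen later. Low depth limits values such as those of MSH4 with 6 and 4 reads and SYCP3 with 4 in each library.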
